A study of Mus musculus with 6 samples.

Results

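The YTH domain family of m6A readers was described in sorted mouse intestinal stem cells whose *Ythdf2* gene was floxed. All genes that encode a YTH domain in the mouse were taken as members, by gene symbol. They are *Ythdf1*, *Ythdf2*, *Ythdf3*, *Ythdc1* and *Ythdc2*, which makes 5 of the 56884 genes in the count files.

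N6-methyladenosine (m6A) is a methyl mark placed on adenosines of messenger RNA by the METTL3 and METTL14 writer complex and removed by the demethylases FTO and ALKBH5. The YTH domain is a fold with an aromatic pocket that holds the methylated adenosine, so proteins that carry it bind marked transcripts. YTHDF1, YTHDF2 and YTHDF3 are closely similar cytoplasmic proteins, of which YTHDF2 is best known for bringing marked RNA to the CCR4-NOT deadenylase. YTHDC1 is nuclear and acts in splicing and export, and YTHDC2 also carries an RNA helicase domain and is best known from meiotic germ cells.

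The 6 RNA sequencing libraries came from epithelial organoids of the mouse small intestine. Every organoid carried Villin-CreERT2, Lgr5-EGFP-IRES-CreERT2 and Ythdf2fl/fl, the EtOH controls included, so both arms held the floxed gene and 2 sources of a Cre recombinase that 4-hydroxytamoxifen (4-OHT) activates. The villin promoter acts throughout the intestinal epithelium, so Cre was not limited to stem cells, whereas the sort for Lgr5-GFP took cells in which the *Lgr5* stem cell locus was active. Cells were sorted at day 6 after EtOH (2 libraries) or 0.5 µM 4-OHT (2 libraries), and at day 4 after EtOH (1 library) or 4-OHT (1 library). The age and sex of the mice are not in the labels, and no label says that replicates came from separate cultures or animals. The p-values therefore measure the spread between these libraries, which may be technical. The day 4 libraries have library names from another number series, so day and library series cannot be told apart.

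Gene counts summed to 14345379 to 21461835 per library. All 8 stem cell markers were detected, at a summed level of 4870 to 5839 CPM (read counts relative to library size, scaled by the trimmed mean of M values) in the EtOH libraries and 3503 to 4048 CPM in those labelled 4-OHT. Without *Olfm4* the other 7 markers summed to 2536 to 3390 CPM and 2402 to 3192 CPM, which overlap. *Slc12a2* was a large part of that sum (1240 to 2080 CPM). Day 6 log2 fold changes were −1.27 for *Olfm4*, −0.65 for *Rgmb*, −0.47 for *Axin2*, −0.45 for *Lgr5*, −0.39 for *Smoc2* and −0.10 for *Slc12a2*. They were 0.14 for *Ascl2* and 0.41 for *Tnfrsf19*. *Olfm4*, *Smoc2*, *Axin2* and *Rgmb* were lower in every library labelled 4-OHT than in any EtOH library, as were 9.01% of genes. Over both days *Olfm4* and *Rgmb* passed as lower, where 0.718% of all genes did. The 8 enterocyte markers summed to 716 to 1075 CPM with EtOH and 1275 to 3133 CPM with 4-OHT, and 6 of them passed the day 6 test as higher, where 2.27% of all genes did. Of the 6 goblet markers 1, *Clca1*, passed as higher. The others had day 6 log2 fold changes of −0.51 (*Spink4*), −0.50 (*Fcgbp*), −0.20 (*Tff3*), 0.02 (*Agr2*) and 0.24 (*Muc2*). The stem cell marker *Olfm4* and the tuft cell marker *Dclk1* passed as lower, where 0.235% of all genes did. Paneth markers summed to 396 to 2796 CPM with EtOH and 1634 to 4924 CPM with 4-OHT. In 4-OHT day 6 replicate 1 their sum was above that of the stem cell markers (4924 against 3727 CPM). Immune markers summed to at most 10.4 CPM, mesenchymal ones to at most 12.7 CPM, and endothelial ones to at most 0.975 CPM. No marker of any list was at 0 in every library.

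The 3 cytoplasmic readers are encoded by genes of like structure that lie on different chromosomes. In GRCm39, *Ythdf1* (ENSMUSG00000038848) lies on chromosome 2 at 180546165 to 180562815, minus strand. *Ythdf2* (ENSMUSG00000040025) lies on chromosome 4 at 131911065 to 131939614, minus strand, and *Ythdf3* (ENSMUSG00000047213) on chromosome 3 at 16237297 to 16271201, plus strand. In each canonical transcript the bulk of the protein is encoded by exon 4, which holds 90.7% of the coding bases of *Ythdf1*, 91.2% of those of *Ythdf2* and 91.1% of those of *Ythdf3*. The exon 4 sequences were 67.4% identical between *Ythdf1* and *Ythdf2* (1007 of 1493 aligned bases), 68.6% between *Ythdf1* and *Ythdf3*, and 68.9% between *Ythdf2* and *Ythdf3*. The stretch below lies in exon 4 and encodes the start of the YTH domain. It is shown because it is the 120-base window of exon 4 with the most bases in common, where reads would be hardest to assign to 1 paralog. It is printed 5′ to 3′ on the coding strand, with capitals at the positions where the 3 genes do not all have the same base. It comes from chr2:180552886-180553005 (minus strand) for *Ythdf1*, chr4:131931849-131931968 (minus strand) for *Ythdf2* and chr3:16259063-16259182 (plus strand) for *Ythdf3*, all GRCm39.
Ythdf1: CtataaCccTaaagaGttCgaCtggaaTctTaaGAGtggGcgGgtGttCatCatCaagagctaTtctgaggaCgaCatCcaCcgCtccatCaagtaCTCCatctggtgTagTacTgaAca
Ythdf2: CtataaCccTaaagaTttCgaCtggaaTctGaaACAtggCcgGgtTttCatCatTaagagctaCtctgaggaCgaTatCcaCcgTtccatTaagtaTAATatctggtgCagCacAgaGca
Ythdf3: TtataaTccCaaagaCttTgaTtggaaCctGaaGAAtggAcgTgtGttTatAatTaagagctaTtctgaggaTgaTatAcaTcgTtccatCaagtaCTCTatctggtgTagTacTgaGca
Over these 120 bases, 88 were the same in all 3 genes. *Ythdf1* differed from *Ythdf2* at 20 of them and *Ythdf3* differed from *Ythdf2* at 25. The capitals fall every few bases, and the longest run shared letter for letter by any 2 of the 3 whole transcripts was 22 bases, between *Ythdf1* and *Ythdf2*. No alignment of at least 100 bases and 90% identity linked 1 member to another.

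Outside the family, the *Ythdf2* transcript has 2 close copies, the processed pseudogenes *Gm8401* (X chromosome, 69561051 to 69563961, 92.9% identity) and *Gm6823* (X chromosome, 69463466 to 69466392, 93.5% identity). Together they cover 55.4% of the 5287 bases of the canonical *Ythdf2* transcript. Both had 0 counts in all 6 libraries. Of all 50-base windows of the transcript, 8.9% were found unchanged in a copy (468 of 5238). Of all 100-base windows 1.12% were (58 of 5188), and of all 150-base windows 0 of 5138 were. A 298-base piece of *Ythdc1* matched a place within *Pccb* on chromosome 9 at 98.0% identity, and *Ythdf1*, *Ythdf3* and *Ythdc2* had no such match.

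The exon plan also sets what a count per gene can show about the floxed locus. Exon 5 of *Ythdf2*, which is nearly all 3′ untranslated, makes up 60.4% of the canonical transcript, and exon 4 makes up 29.96%. The labels do not name the exon between the loxP sites, and the files give 1 count per gene. Reads from exons that stay in place enter that count, so it does not check whether the floxed part was lost. The labels of the libraries therefore could not be checked on the gene meant to be deleted. In what follows "with 4-OHT" and "with EtOH" name labels, and the directions would turn if the labels were exchanged.

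**Figure D1:**
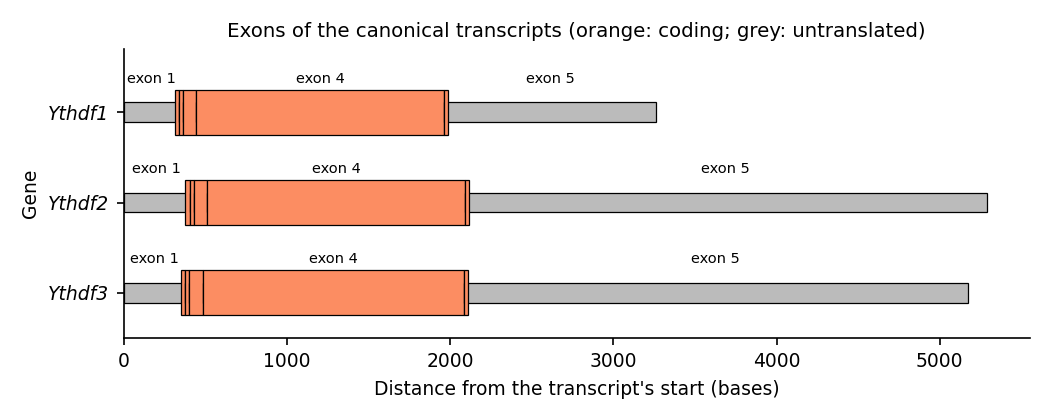
Exons of the canonical *Ythdf1*, *Ythdf2* and *Ythdf3* transcripts in GENCODE M39, drawn to scale by distance from the transcript's start in bases, with coding and untranslated parts marked. In all 3 genes exon 4 holds over 90% of the coding bases, and in *Ythdf2* exon 5 takes 60.4% of the transcript.

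*Ythdf2*, the decay-linked reader and the floxed gene, was the member that moved with the label, and it was higher, not lower, in the libraries labelled 4-OHT. Its read counts with EtOH were 1563, 1312 and 1483 (day 6 replicates 1 and 2, then day 4), and with 4-OHT they were 4463, 3816 and 2466. Scaled to CPM, the EtOH libraries had 82.7, 76.1 and 76.1 and those labelled 4-OHT had 208, 205 and 166 in the same order. The 3 libraries labelled 4-OHT stood above the 3 EtOH libraries with no overlap, which was also the case for 11.0% of the 14060 genes tested over both days. A gap in the other direction was seen for 0 of 5 members and 9.01% of genes. The day 4 library labelled 4-OHT was the lowest of its arm, and the EtOH libraries differed little. By CPM, *Ythdf2* was the 2842nd to 3260th gene of a library with EtOH and the 860th to 1177th with 4-OHT. Since this is bulk RNA, a change in the number of cells of a type and a change in RNA per cell cannot be told apart.

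At day 6 the *Ythdf2* level was 79.4 ± 4.65 CPM with EtOH and 207 ± 2.40 CPM with 4-OHT (SD, n = 2 each). This was a 2.59-fold rise (95% interval 2.03 to 3.30), or 1.37 on the log2 scale with standard error (SE) 0.16, and its adjusted p came to 0.00180 (edgeR quasi-likelihood F test, Benjamini-Hochberg). Over both days, with day as a term, it was 1.30 (SE 0.11), a 2.46-fold rise with an interval of 2.08 to 2.90 and adjusted p = 0.000231 in edgeR (Benjamini-Hochberg). At day 4, where 1 library stands for each arm and no test was made, the ratio was 2.18, with exact 95% bounds of 2.04 and 2.33 from counting error alone. Among 12827 genes averaging 1 CPM or more at day 4, 3.75% had a larger log2 fold change than *Ythdf2*. A rise of 2-fold or more was seen for 1 of 5 members and 4.51% of these genes, and a fall of 2-fold or more for 0 of 5 members and 1.45% of these genes. The day 6 difference between the labels minus that of day 4 was 0.22 on the log2 scale with a 95% interval of −0.40 to 0.84, so the data do not tell the days apart. The adjusted p of that difference was 1.00 (edgeR quasi-likelihood F test, Benjamini-Hochberg).

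At day 6, 353 of 14066 genes passed the adjusted threshold of 0.05, which is 2.51% of those tested (2.27% higher with 4-OHT, 0.235% lower). *Ythdf2* was 1 of 5 members among them and ranked 40th of all genes by p. Over both days 618 of 14060 genes passed (4.40%, with 3.68% higher and 0.718% lower), again with *Ythdf2* as 1 of 5 members, ranked 22nd by p. The day 6 number of genes past the threshold fell to 113 when EtOH replicate 1 was left out. Over both days it was 384 without 4-OHT day 6 replicate 1, 394 without 4-OHT day 6 replicate 2, and 361 without either day 4 library. In the last case the day term takes up the day 4 library that is left, so the test rests on the day 6 libraries. *Ythdf2* was among the genes past the threshold in each of these, with a highest adjusted p of 0.00988 in edgeR (quasi-likelihood, Benjamini-Hochberg). The same libraries differed in *Olfm4*, *Smoc2*, *Axin2* and *Rgmb* and in the enterocyte marker sum given above. They also differed in the sum of 6 proliferation markers, 1710 to 1992 CPM with EtOH and 1481 to 1625 CPM with 4-OHT. Of those 6 genes, 0 passed at day 6. The part these play in the *Ythdf2* difference was not tested.

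**Figure D2:**
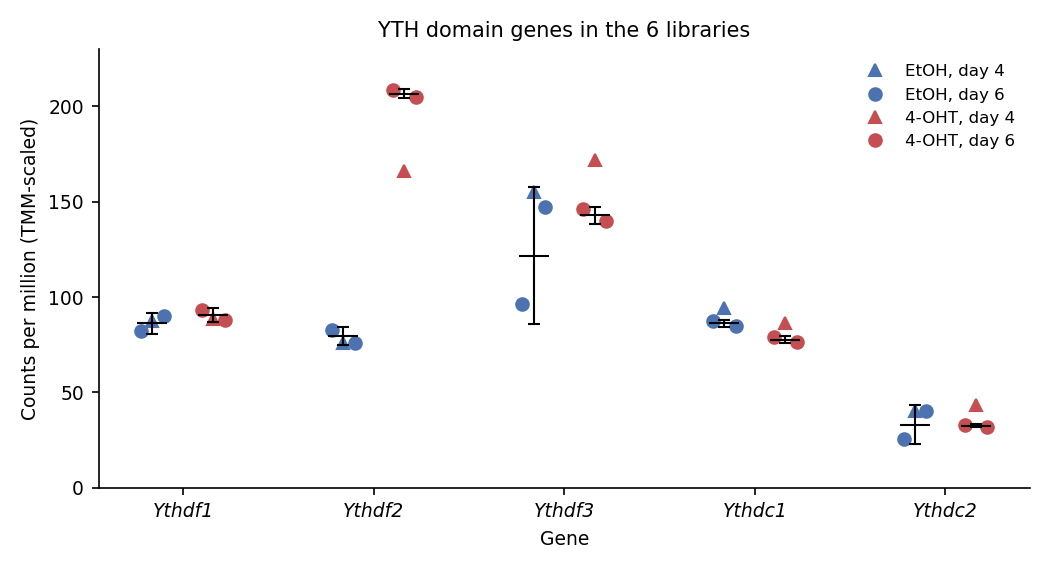
Level of each YTH domain gene in CPM in every library, by treatment label and day, 1 point per library. The 3 *Ythdf2* points labelled 4-OHT lie at 166 to 208 CPM and the EtOH ones at 76.1 to 82.7 CPM, while the points of *Ythdf1*, *Ythdf3*, *Ythdc1* and *Ythdc2* overlap between labels.

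*Ythdf1*, the paralog best known for promoting translation of marked transcripts, was the steadiest member. Its CPM were 82.3, 90.1 and 87.7 in the EtOH libraries (day 6 replicates 1 and 2, then day 4) and 93.1, 87.9 and 88.5 in those labelled 4-OHT. The arms overlapped, and the highest library was 1.13 times the lowest. The day 6 log2 fold change was 0.06 (SE 0.16, 95% interval −0.29 to 0.42), with adjusted p = 0.962 (edgeR quasi-likelihood F test, Benjamini-Hochberg). Over both days it was 0.05, with an interval of −0.18 to 0.29 that leaves out a change of the size seen for *Ythdf2*. At day 4 the ratio was 1.01, with a counting interval of 0.939 to 1.09.

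*Ythdf3*, the third cytoplasmic paralog, varied more between libraries of 1 arm than between arms. Its CPM were 96.5, 147 and 155 with EtOH and 146, 140 and 172 in the libraries labelled 4-OHT, in the same order of libraries. EtOH replicate 1 of day 6 was the low one, and the other 5 libraries lay between 140 and 172 CPM. The day 6 log2 fold change was 0.22 (SE 0.20, 95% interval −0.23 to 0.67), with adjusted p = 0.829 (edgeR quasi-likelihood F test, Benjamini-Hochberg). At day 6 its direction rested on that 1 library, since leaving out EtOH replicate 1 gave −0.05 and leaving out EtOH replicate 2 gave 0.56. Over both days it was 0.20 (interval −0.13 to 0.54), and 0.04 to 0.38 when single libraries were left out. The day 4 ratio was 1.11 with a counting interval of 1.05 to 1.17. Of the exon bases of *Ythdf3*, 3.34% overlap *Gm64384* on the opposite strand, and whether counting used strand is not given in the sources used here.

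*Ythdc1*, the nuclear reader (ENSMUSG00000035851; chromosome 5, 86951957 to 86985080, plus strand, GRCm39), was somewhat lower in the day 6 libraries labelled 4-OHT without passing the test. It had 87.7, 85.0 and 94.1 CPM with EtOH and 78.9, 76.4 and 86.2 CPM in the libraries labelled 4-OHT. Both day 6 libraries labelled 4-OHT were below both EtOH ones, which held for 18.0% of all genes tested at day 6, but over the 6 libraries the arms overlapped. *Ythdf2*, with both day 6 libraries above (20.7% of genes), and *Ythdc1* made 2 of 5 members without overlap at day 6, beside 38.7% of genes in either direction. The log2 fold change was −0.16 (SE 0.16, 95% interval −0.51 to 0.19) at day 6, with adjusted p = 0.848 (edgeR quasi-likelihood F test, Benjamini-Hochberg), and −0.14 (interval −0.37 to 0.08) over both days. The day 4 ratio was 0.916, with a counting interval of 0.852 to 0.985. Of its exon bases, 5.75% overlap other genes. *Gm43055* (4.3%) is on the same strand and had 0 counts in all libraries, and *Gm71361* (1.44%) is on the opposite strand.

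*Ythdc2*, the helicase member (ENSMUSG00000034653; chromosome 18, 44960813 to 45022791, plus strand, GRCm39), had the fewest counts, 488 to 782 per library. Its CPM were 25.8, 40.4 and 40.1 with EtOH and 33.2, 32.1 and 43.3 in the libraries labelled 4-OHT. EtOH replicate 1 of day 6 was again the lowest library, as for *Ythdf3*. The day 6 log2 fold change was −0.03 (SE 0.23, 95% interval −0.54 to 0.49), with adjusted p = 0.988 (edgeR quasi-likelihood F test, Benjamini-Hochberg). Its sign depended on single libraries, with −0.31 without EtOH replicate 1 and 0.33 without EtOH replicate 2. The day 4 ratio was 1.08 with a counting interval of 0.972 to 1.20. Of the exon bases of *Ythdc2*, 2.89% overlap *Gm58493* on the opposite strand. MEIOC and RBM46 are partners of YTHDC2 in germ cells, and their genes were barely detected here, with 0 to 4 counts for *Meioc* and 0 to 3 for *Rbm46* per library.

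**Figure D3:**
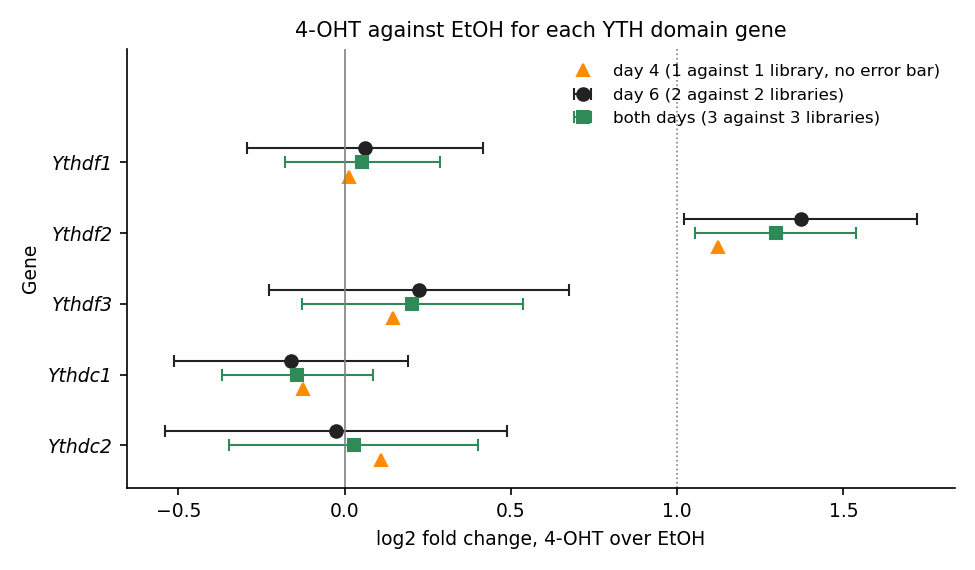
Log2 fold change of each YTH domain gene in the libraries labelled 4-OHT against EtOH, at day 6 and over both days with 95% intervals from the edgeR fits, and at day 4 as a point with no interval. The dotted line marks a 2-fold rise. *Ythdf2* lies at 1.37, 1.30 and 1.12, and the intervals of the other 4 genes include 0.

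Between the days, 0 of 5 members passed the test of the day term, which 0.562% of 14060 genes did. The largest day 6 against day 4 differences were −0.35 for *Ythdc2* (95% interval −0.75 to 0.04) and −0.32 for *Ythdf3* (interval −0.67 to 0.03), with adjusted p = 0.455 and 0.441 (edgeR quasi-likelihood F test, Benjamini-Hochberg). *Ythdf1* stood at −0.01, *Ythdc1* at −0.15 and *Ythdf2* at 0.18. In the test of whether the difference between labels changed with the day, 0 of 16031 genes passed with edgeR, where 297 had an unadjusted p under 0.05, and DESeq2 counted 6 and limma-voom 0. The lone day 4 libraries are assumed there to vary like the day 6 ones. The members' differences in that test ran from −0.16 (*Ythdc2*) to 0.22 (*Ythdf2*).

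Levels of different genes were compared per length, as CPM per kilobase over the union of a gene's annotated exons. On that scale *Ythdf1* was the highest member in all 3 EtOH libraries, and it stayed between 24.3 and 27.4 over all 6 libraries. *Ythdf2* came to 12.5 to 13.6 with EtOH and 27.4 to 34.4 with 4-OHT, *Ythdf3* to 8.31 to 14.8 over all libraries, *Ythdc1* to 5.22 to 6.44 and *Ythdc2* to 2.74 to 4.59. The order in each library labelled 4-OHT was *Ythdf2*, *Ythdf1*, *Ythdf3*, *Ythdc1* and *Ythdc2*. With EtOH, *Ythdf2* and *Ythdf3* did not differ beyond the spread of the libraries and changed places between them, *Ythdf2* being ahead in day 6 replicate 1 alone. The ranges of *Ythdf1*, *Ythdc1* and *Ythdc2* did not overlap with each other or with any other member in the EtOH libraries.

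The order above the last place depends on the length used. Per kilobase of the longest coding transcript, *Ythdf3* was highest in EtOH replicate 2 of day 6 and in both day 4 libraries, and *Ythdc1* stood above *Ythdf2* in all 3 EtOH libraries. On this scale *Ythdf1* ranged from 24.6 to 27.9, *Ythdf2* from 14.4 to 39.4, *Ythdf3* from 18.5 to 32.9, *Ythdc1* from 18.8 to 23.2 and *Ythdc2* from 3.58 to 6.00. *Ythdc2* was last in all 6 libraries on both scales.

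The makeup of the cytoplasmic trio shifted towards *Ythdf2*. Of the CPM per kilobase (union of exons) of *Ythdf1*, *Ythdf2* and *Ythdf3* together, *Ythdf2* made up 29.5%, 24.2% and 24.2% in the EtOH libraries (day 6 replicates 1 and 2, then day 4) and 46.2%, 47.1% and 40.1% in those labelled 4-OHT. The arms did not overlap. The share of *Ythdf1* was 52.5%, 51.3% and 49.9% with EtOH and 36.9%, 36.1% and 38.2% with 4-OHT, and that of *Ythdf3* was 18.0%, 24.5% and 25.8% against 16.9%, 16.8% and 21.7%. Within days the *Ythdf2* share was 18.5 percentage points higher with 4-OHT, 19.8 at day 6 and 15.9 at day 4. A two-sided exact permutation of labels within days gave p = 0.167, the smallest value that its 12 arrangements allow, so this design cannot pass 0.05, and the Benjamini-Hochberg adjusted value over 5 such ratios was also 0.167. These ratios are taken within a library and do not depend on how libraries are scaled.

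**Figure D4:**
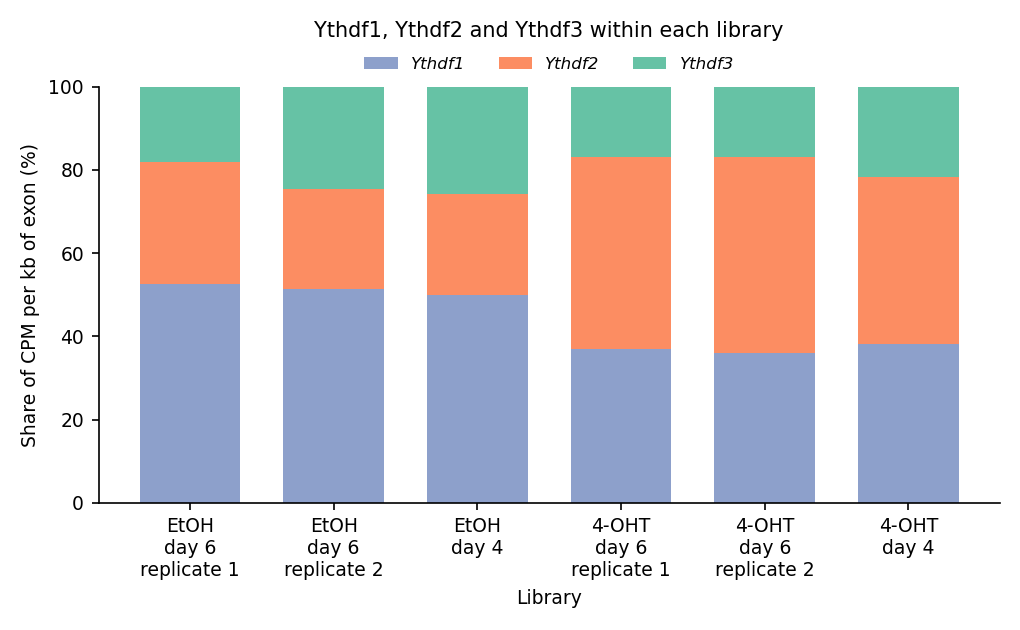
Share in percent of *Ythdf1*, *Ythdf2* and *Ythdf3* in their summed CPM per kilobase of exon, 1 stacked bar per library. The *Ythdf2* part is 24.2% to 29.5% with EtOH and 40.1% to 47.1% with 4-OHT.

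The ratio of *Ythdf2* to each relative in the same library was higher with 4-OHT. All of these ratios hold the *Ythdf2* counts, so they restate its difference and are not separate evidence. The log2 ratio of *Ythdf2* to *Ythdf1*, as CPM, was 0.01, −0.24 and −0.21 with EtOH (day 6 replicates 1 and 2, then day 4) and 1.16, 1.22 and 0.91 with 4-OHT. Within days these ratios differed by 1.24 for *Ythdf1*, 1.07 for *Ythdf3*, 1.44 for *Ythdc1* and 1.25 for *Ythdc2*, each at the smallest exact permutation p of 0.167. The summed CPM of the trio was 262, 313 and 319 with EtOH and 448, 433 and 426 with 4-OHT. Without *Ythdf2* it was 179, 237 and 243 against 239, 228 and 260, and the arms overlapped.

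The other genes of the m6A pathway were read from lists of writers, erasers, other readers and the decay machinery that readers engage. With partners of YTHDC1 and YTHDC2 these lists held 66 genes, of which 63 were tested. At day 6, 0 of the 63 passed the adjusted threshold in either direction and 2 had an unadjusted p under 0.05, and over both days 0 were higher and 1 was lower. Over all genes, 2.51% passed at day 6, 10.3% had an unadjusted p under 0.05, and 4.40% passed over both days. The median log2 fold change of the 63 was −0.10 at day 6, beside −0.01 over all genes tested, and 16 of the 63 were above 0. Of all genes tested at day 6, 39.4% lay above 0.06 and 51.7% above −0.03. The lists were not tested as sets. By group, 4 of 13 writers, 2 of 2 erasers, 1 of 10 other readers, 2 of 11 CCR4-NOT genes, 6 of 12 RNase P/MRP genes, 1 of 10 decapping genes and 0 of 5 *Ythdc1* partners were above 0.

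Of the writers, *Mettl3*, the catalytic subunit, had a day 6 log2 fold change of −0.34 (SE 0.21), and *Mettl14*, its RNA-binding partner, −0.06 (SE 0.17). Of the *Mettl3* exon bases, 34.1% overlap *Tox4* on the opposite strand, so its counts are uncertain. The erasers *Fto* and *Alkbh5* each stood at 0.06 (SE 0.16 and 0.19). *Cnot1*, the scaffold of CCR4-NOT that YTHDF2 contacts, stood at −0.09 (SE 0.20). *Igf2bp2* and *Igf2bp3*, readers without a YTH domain that stabilise marked RNA, stood at −0.07 (SE 0.19) and −0.08 (SE 0.34), and 19.3% of the exon bases of *Igf2bp3* overlap *Malsu1*. *Igf2bp1*, their fetal relative, had 0 counts in all 4 day 6 libraries, and 13 (EtOH) and 3 (4-OHT) at day 4. None of the tested genes in this paragraph passed the threshold.

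*Rbmx*, a splicing-related RNA-binding protein gene on the reader list, was the 1 gene that passed over both days, and it was lower in the libraries labelled 4-OHT. Its CPM were 65.6, 62.2 and 57.6 with EtOH (day 6 replicates 1 and 2, then day 4) and 42.0, 40.7 and 39.5 with 4-OHT, with no overlap between arms, as for 9.01% of genes in that direction. The log2 fold change was −0.60 (SE 0.11) over both days, with adjusted p = 0.0142 (edgeR quasi-likelihood F test, Benjamini-Hochberg), and −0.64 (SE 0.17) at day 6, with adjusted p = 0.104. The edgeR adjusted p (Benjamini-Hochberg) over both days rose above the threshold without 4-OHT replicate 1 (0.0774) or replicate 2 (0.0840) of day 6. It also did so without the day 4 library labelled 4-OHT (0.0985) or EtOH (0.106). The day term takes up the day 4 library that is left there, so those fits rest on the day 6 libraries. *Rbmx* has retrocopies in the mouse genome, so its counts are uncertain.

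Genes whose pattern over the 6 libraries was nearest to that of *Ythdf2* were sought among 9211 protein-coding genes averaging 10 CPM or more. Likeness was the root mean square difference of log2 CPM, each gene centred on its own mean over the 6 libraries. Among the 5 nearest were *S100a1* (0.111), *Endod1* (0.136), *Sri* (0.143) and *Tspan4* (0.157). *S100a1* and *Sri* (sorcin) encode calcium-binding proteins, *Endod1* an endonuclease domain protein and *Tspan4* a tetraspanin. Their day 6 log2 fold changes were 1.30, 1.20, 1.15 and 1.38, and they were picked for that likeness, so these are descriptions. The exons of these 4 genes overlap genes on the opposite strand over part of their length, 88.5% for *S100a1* with *S100a13*, 54.4% for *Sri* with *Adam22*, 23.8% for *Tspan4* with *Polr2l* and 3.67% for *Endod1* with *Gm68724*. The other YTH domain genes lay further from *Ythdf2* than these 4, at ranks within the bulk of the 9211 genes. *Ythdf3* was at 0.625 (rank 2659), *Ythdf1* at 0.634 (2951), *Ythdc2* at 0.715 (5850) and *Ythdc1* at 0.739 (6685).

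**Figure D5:**
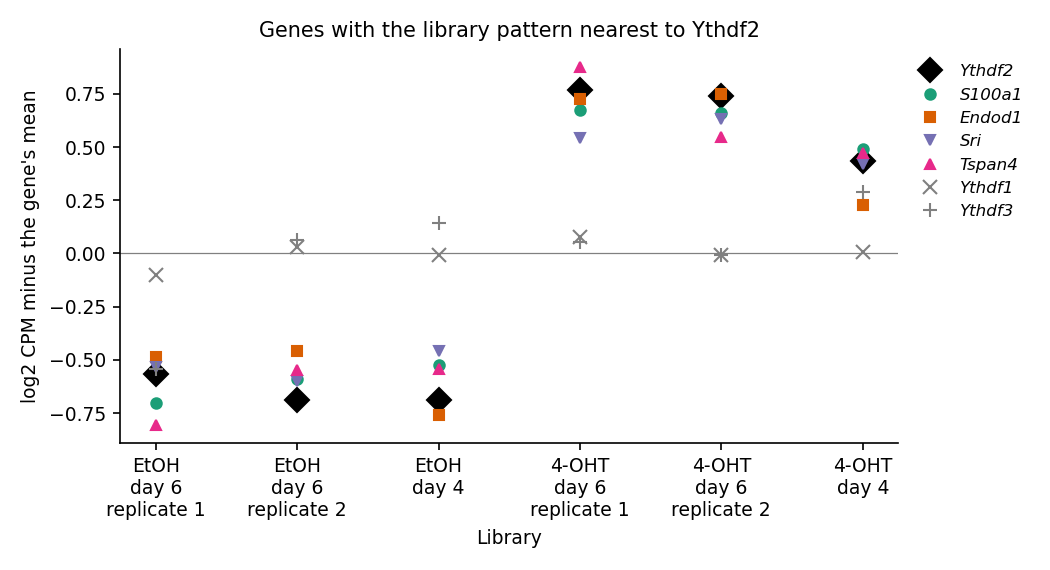
Log2 CPM minus the gene's mean over the 6 libraries, for *Ythdf2*, 4 of the 5 nearest genes, and *Ythdf1* and *Ythdf3*, by library. The 4 genes run beside *Ythdf2*, at root mean square differences of 0.111 to 0.157, and *Ythdf1* and *Ythdf3* stand at 0.634 and 0.625.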

How the data were processed

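Gene counts of 6 libraries were analysed. Per the labels' protocols, polyadenylated RNA was isolated on oligo-dT beads and copied from random hexamers. The authors deposited raw counts of reads for 56884 Ensembl genes. STAR and the mm39 build are named per the submitters' processing notes, and the annotation release and strand setting are not given in the sources used here. Summary lines (unmapped, multimapping, unassigned and ambiguous reads, 19.3% to 26.7% of entries) were left out of library sizes and tests. Reads with several places or genes are in those lines, so genes with close copies can be undercounted. Symbols, exons and coordinates came from GENCODE M39 on GRCm39, which matched 56323 identifiers.

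The whole table was fitted with edgeR 4.0.16 in R 4.3.3 (glmQLFit and glmQLFTest, TMM scaling, filterByExpr at a minimum count of 10), with Benjamini-Hochberg adjustment over all genes tested and a threshold of 0.05. The day 6 test used 4 libraries. The test over both days used 6 with day as a term. Day 4 was not tested. Its log2 fold changes used a prior count of 2. The alternatives were DESeq2 1.42.0, limma-voom (limma 3.58.1), other scalings and filters, a replicate block, a fit of 4 groups, no day term, and leaving out each library. The older edgeR quasi-likelihood fit and the day 6 tests on 3 libraries were added after seeing the data. The scripts were tested on simulated counts. Copies were sought with blastn 2.17.0 and paralogs aligned with mafft 7.526. Intervals on counts cover counting error only. Replicates differed by more than sampling noise (chi-square per degree of freedom 33.2 with EtOH and 22.9 with 4-OHT), so each was kept.

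Members and lists were chosen with earlier results of these data known. The genes named are the 5 members, *Mettl3*, *Mettl14*, *Fto*, *Alkbh5*, *Cnot1*, *Igf2bp1*, *Igf2bp2*, *Igf2bp3*, any list gene past the threshold (the 5 largest changes of a list at most), the 5 genes most like *Ythdf2* (1 of which is not reported here), and genes whose exons overlap a member. *Meioc* and *Rbm46* were named after their counts were seen. Marker lists were for stem cells, enterocytes, goblet, Paneth, enteroendocrine and tuft cells, proliferation, immune cells, mesenchyme, endothelium, and neurons and glia. Summed levels with EtOH and with 4-OHT were 2043 to 3463 and 2406 to 2827 CPM for goblet cells. They were 396 to 2796 and 1634 to 4924 for Paneth cells, and 53.8 to 408 and 246 to 654 for enteroendocrine cells. For tuft cells they were 9.90 to 32.1 and 6.93 to 9.90. For proliferation they were 1710 to 1992 and 1481 to 1625, and for neurons and glia 1.49 to 4.66 and 1.82 to 3.06.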

Additional observations from a re-analysis of the deposited data

How the results depend on the processing

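*Ythdf2* kept its direction and passed the threshold in every alternative that was tested, with a log2 fold change of 1.31 to 1.44 at day 6 (adjusted p 4.0e-11 to 0.0156) and 1.23 to 1.37 over both days (adjusted p 6.2e-22 to 0.00209, edgeR, DESeq2 or limma). Its share of the cytoplasmic trio was 16.6 to 19.8 percentage points higher with 4-OHT when single libraries were left out, and 17.7 without the length correction. The other 4 members passed in 0 of the alternatives. Of 235 alternative values of members, 223 kept direction and side of the threshold, and the causes of the other changes were not tested. The sign of *Ythdc2* at day 6 turned with limma-voom (0.0140), and ran from −0.31 to 0.33 when single libraries were left out. *Ythdf3* at day 6 ran from −0.0463 (−0.0451 when refitted on 3 libraries) to 0.56 in the same way. Over both days the leave-one-out values ran from −0.13 to 0.23 for *Ythdc2*, −0.25 to 0.33 for *Igf2bp3*, −0.0481 to 0.15 for *Alkbh5*, −0.00247 to 0.0602 for *Fto* and −0.25 to 0.0416 for *Cnot1*. *Igf2bp3* with limma-voom was 0.00395 at day 6 and 0.0482 over both days, and *Ythdf1* between days without a filter was 0.00342. *Rbmx* at day 6 passed with DESeq2 (−0.64, adjusted p 0.0497).

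Numbers of genes past the threshold moved more. Leaving out single libraries gave 113 to 409 genes at day 6 and 361 to 701 over both days, and dropping the day term gave 361. In the day 6 tests that leave 1 library in an arm, that library is assumed to vary like the other arm. Between days the number was 182 without a filter, 318 with DESeq2, 42 with limma-voom and 50 with the older edgeR fit, and DESeq2 counted 6 genes for the difference between days. A replicate block on the day 6 numbers gave 839 genes, *Ythdf2* at 1.37 (adjusted p 1.04e-10, edgeR), *Ythdc2* at 0.00641 and *Rbmx* at −0.64 (adjusted p 0.0262, edgeR). The deviations of same-numbered day 6 libraries correlated at 0.27 across genes, but with 2 pairs and no such label the numbers were not taken to pair the libraries. With 2 libraries per arm, changes of *Ythdf3* and *Ythdc2* within their day 6 intervals are not excluded.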
